A study of Mus musculus with 15 samples.

Results

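Cadherins and protocadherins are the calcium-dependent adhesion proteins of the cell surface, and the 94 genes described here are all those whose symbol in the expression table is Cdh followed by a number or begins with Pcdh, out of 26628 genes listed. Of the 94, 88 reached the level needed for testing, among 15213 genes tested. The 88 comprised 5 type I classical cadherins, 13 type II classical cadherins, 2 other cadherins, 9 delta protocadherins, 2 other protocadherins outside the gene clusters, and 57 clustered protocadherins (14 alpha, 21 beta and 22 gamma). The 6 that were too low to test were Cdh16, a cadherin known from the kidney, and Cdh17, known from the intestine, together with Cdh26, Pcdh12, Pcdhb1 and the entry Pcdha4-g. Cdh16 and Pcdha4-g were listed at 0 in all 15 samples. The highest sample had 41.0 normalized counts of Pcdh12, an endothelial protocadherin, 40.8 of Cdh26, 25.2 of Pcdhb1 and 6.92 of Cdh17.

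Classical cadherins bind the same cadherin on the neighbouring cell and are tied to actin through catenins, and in the brain the combination of cadherins that a neuron carries is known to differ between nuclei, layers and circuits. Delta protocadherins are single genes scattered over the genome that act in axon growth and synapse formation. The clustered protocadherins are 3 neighbouring gene arrays in which each variable first exon has its own promoter. In the alpha and gamma arrays the variable exon is spliced to constant exons shared by the whole array, whereas beta genes have a single exon. Most variable exons are chosen at random in each neuron and label single cells, whereas the last exons of the alpha and gamma arrays, the C-type isoforms, are used by cell type.

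The values come from RNA sequencing of entire cerebellum (Ce) and striatum (St) of male Hsd:ICR mice, an outbred albino strain. The Hi mice came from line 7 of a selection experiment, bred over many generations for voluntary wheel running, and the Co mice from line 1 of the same experiment, which was not selected. All mice, Co included, could run on a wheel in the cage at will and were sampled on day 7 of this, at an age of 6 weeks per the labels (the study's methods give a slightly higher age). There were 4 samples each of CeCo, CeHi and StCo and 3 of StHi, each from 1 mouse, after the authors had removed 1 StHi sample. Each line was represented by 1 breeding line, so selection for running and any other difference between line 7 and line 1 cannot be told apart. Without a group that had no wheel, the response to running itself was not measured.

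Depth was 32909396 to 47485547 fragments per sample, and values are given as normalized counts, fragment counts that the authors scaled to a common library size and did not divide by gene length. The region labels were checked against marker genes, none of which was at 0 in any sample. The summed level of 8 cerebellar neuron markers was 273956 to 315215 in Ce and 11910 to 16061 in St, and that of 8 striatal neuron markers was 168672 to 233951 in St and 8319 to 11668 in Ce. In CeHi replicate 3 the median level of the striatal markers was 1.94% of their striatal level, and in the remaining 7 cerebellar samples it was 0.509% to 0.653%. Choroid plexus markers varied widely between samples, between 726 and 113916 in Ce, 221 and 753 in StCo, and 722 and 16127 in StHi. These samples are mixtures of cells, in which fewer cells of a type and less RNA per cell cannot be told apart.

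The first comparison asked how the family differed between the regions. Most members were higher in the striatum. Of the 88 members tested, 75 differed between Ce and St at an FDR-adjusted P-value (limma) under 0.05, of which 17 were higher in Ce and 58 were higher in St. The regions differed in most genes, with 80.2% of all genes tested called against 85.2% of the members, so that the share of members called was close to the background. The split by direction was 40.6% of all genes higher in Ce and 39.6% higher in St, against 19.3% and 65.9% of the members. The median log2 difference, Ce minus St, was -0.52 over the members and 0.01 over all genes tested. A log2 difference of more than 1 in size was found for 28 called members (31.8%, against 24.1% of all genes), 5 of them higher in Ce and 23 higher in St. In 10 members every Ce value was above every St value (27.5% of all genes did so), in 41 every St value was above every Ce value (27.7% of all genes), and in 37 the regions overlapped.

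**Figure D1:**
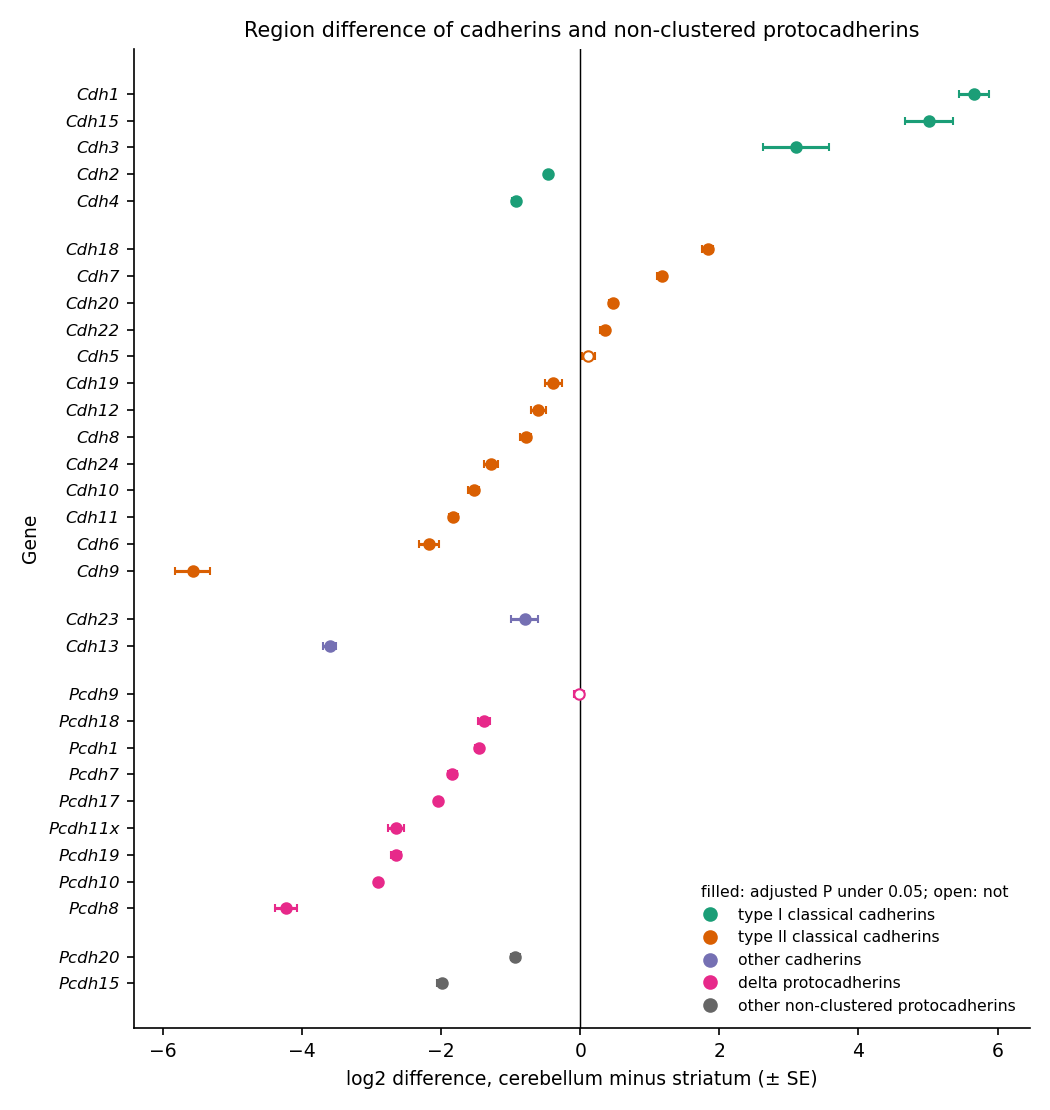
Log2 difference between cerebellum and striatum (Ce minus St, log2 of normalized count plus 1, bars are standard errors from limma) of the 31 tested members outside the protocadherin clusters, grouped by subfamily, with filled points for members called. Cdh1, Cdh15 and Cdh3 lie farthest to the cerebellar side at 5.66, 5.01 and 3.10, Cdh9, Pcdh8 and Cdh13 farthest to the striatal side at -5.57, -4.23 and -3.60, and all the delta protocadherins other than Pcdh9 lie on the striatal side.

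The promoters of 4 of the genes with the largest region differences among the members counted below from the RefSeq promoter table (GRCm38.p6) are shown first. CG dinucleotides, the sites of DNA methylation, are in capitals. The promoters shown are the 250 bases ending just before the start of transcription as RefSeq places it, read along the gene's strand. They are Cdh15, which was higher in Ce (chr8:122848124-122848373, plus strand), and Cdh9 (chr15:16728665-16728914, plus strand, which lies inside the start of the gene as the annotation used for gene positions draws it), Pcdh8 (chr14:79771313-79771562, minus strand) and Pcdh10 (chr3:45378148-45378397, plus strand), which were higher in St.
Cdh15: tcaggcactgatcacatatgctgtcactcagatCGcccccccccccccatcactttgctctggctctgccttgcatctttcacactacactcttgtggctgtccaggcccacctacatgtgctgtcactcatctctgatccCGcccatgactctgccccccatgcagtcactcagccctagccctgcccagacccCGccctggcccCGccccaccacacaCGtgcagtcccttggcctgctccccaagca
Cdh9: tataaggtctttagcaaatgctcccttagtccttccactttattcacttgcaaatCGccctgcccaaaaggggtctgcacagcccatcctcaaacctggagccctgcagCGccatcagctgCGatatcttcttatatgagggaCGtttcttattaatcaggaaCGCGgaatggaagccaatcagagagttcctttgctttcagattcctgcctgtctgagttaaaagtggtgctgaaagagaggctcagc
Pcdh8: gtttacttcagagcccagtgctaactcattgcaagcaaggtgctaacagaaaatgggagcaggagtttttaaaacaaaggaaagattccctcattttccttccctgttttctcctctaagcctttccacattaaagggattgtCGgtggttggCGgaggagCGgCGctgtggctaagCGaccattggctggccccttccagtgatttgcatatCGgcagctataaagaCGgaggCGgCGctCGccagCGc
Pcdh10: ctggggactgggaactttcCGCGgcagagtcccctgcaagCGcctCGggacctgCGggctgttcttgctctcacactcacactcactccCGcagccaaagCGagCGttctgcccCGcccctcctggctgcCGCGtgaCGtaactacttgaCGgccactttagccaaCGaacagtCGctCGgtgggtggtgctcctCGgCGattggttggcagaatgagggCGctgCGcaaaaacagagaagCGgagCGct
The windows of Cdh15 and Cdh9, with differences in opposite directions, held 5 and 6 CG dinucleotides, and those of Pcdh8 and Pcdh10 held 11 and 22. The 25 promoters counted, of 22 members outside the protocadherin clusters, had a median of 10 CG dinucleotides, against 6 over all 32851 promoters. No promoter of a clustered protocadherin, of Cdh2 or of Pcdh1 was among those counted. The comparison with all promoters therefore does not describe the whole family. Of the member promoters, 52.0% had 10 or more, against 37.8% of all. Among the delta protocadherins the count was 7 for Pcdh7, 16 for Pcdh19, 18 for both promoters of Pcdh9, 21 for Pcdh17 and 23 for Pcdh18, and Pcdh9, the delta gene that was not called between the regions, lay within the range of the others. The letters CAGCTG, an E-box read alike on both strands, were found in 8.0% of the member promoters (Cdh9 and Cdh12) and 13.0% of all. The letters TATAAA, searched on both strands, were in 8.0% (Pcdh8 and Pcdh15) of the members' and 12.4% of all. These are matches of letters only, and no binding was measured.

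All 5 type I classical cadherins differed between the regions (80.2% of all genes did), and 3 of them were the members with the largest differences towards the cerebellum. Cdh1, E-cadherin of epithelia (chr8:106603350-106670247, plus strand), had 242, 273, 269.6 and 259 normalized counts in CeCo and 219, 181, 259 and 178 in CeHi. In St it had 4.94, 6.92, 7.35 and 2.74 in StCo and 5.19, 1.94 and 1.19 in StHi, so that the lowest Ce value was above every St value and the striatal values were close to the limit of detection. The log2 difference was 5.66 ± 0.22 (SE, FDR-adjusted P-value = 1.4e-13), and it ranged from 4.74 to 6.03 over other settings, since the fold of a gene near 0 depends on the constant added. The markers of meninges and fibroblasts were also higher in Ce, by a smaller factor than Cdh1. Their sum was 3342 to 4235 in CeCo, 2428 to 3429 in CeHi and 617 to 1081 in St. Within CeHi the highest sum was in replicate 2, which also had the highest Cdh1 value, 259. Within CeCo the highest sum was in replicate 2, with a Cdh1 value of 269.6, and the highest Cdh1 value, 273, was in replicate 1. Their part in the difference was not tested.

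Cdh15, M-cadherin of muscle and of cerebellar granule cells (chr8:122848374-122867397, plus strand), had 1824, 2306, 1668 and 1845 in CeCo and 1412, 1540.2, 1347 and 1283 in CeHi. It had 34.6, 25.7, 97.7 and 111 in StCo and 96.0, 24.3 and 34.4 in StHi, and again no St value came near the Ce values. The log2 difference between regions was 5.01 ± 0.35 (FDR-adjusted P-value = 1.8e-08). Cdh3, P-cadherin (chr8:106510852-106556911, plus strand), lies beside Cdh1 on chromosome 8 and had 60.6, 10.7, 73.4 and 24.9 in CeCo and 14.3, 90.7, 58.4 and 34.9 in CeHi. In the striatum it had 4.94, 0.989, 2.10 and 3.66 (StCo) and 3.89, 1.94 and 9.50 (StHi), all below the lowest Ce value. Its log2 difference was 3.10 ± 0.47 (FDR-adjusted P-value = 1.3e-05) and ranged from 2.30 to 3.58 over other settings, and its wide spread within Ce went with the choroid plexus markers. The highest Ce values of Cdh3, 90.7 and 73.4, were in the samples with marker sums of 110584 and 113916, the lowest, 10.7 and 14.3, in those with 1060 and 726, and the highest St value, 9.50, in the sample with 16127. The part of choroid plexus tissue in the difference was not tested.

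The remaining 2 type I genes were higher in the striatum by smaller amounts, at much higher levels. Cdh2, N-cadherin, which holds synapses together, averaged 4335 ± 265 (SD, n = 4) for CeCo, close to 4400 ± 248 (n = 4) for CeHi. In the striatum it averaged 6241 ± 246 (n = 4) for StCo and 5792 ± 114 (n = 3) for StHi. The log2 difference was -0.47 ± 0.04. Cdh4, R-cadherin, had 791 ± 35.5 in CeCo and 1483 ± 136 in StCo, and its log2 difference was -0.92 ± 0.05. For both, every St value was above every Ce value.

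Of the 13 type II classical cadherins, 4 were higher in Ce (40.6% of all genes were), 8 were higher in St (39.6% of all genes were) and Cdh5 was not called. The largest difference towards Ce was that of Cdh18 (chr15:22548898-23477491, plus strand), a cadherin of the nervous system. It had 2296, 2864, 2738 and 2635 in CeCo and 3294, 3032, 2617 and 2780.4 in CeHi, against 928, 807, 745 and 802 in StCo and 798, 581 and 854 in StHi. The groups of the regions did not overlap, and the log2 difference was 1.83 ± 0.08 (FDR-adjusted P-value = 2.0e-12). Cdh7 followed with 1.17 ± 0.06 (1602 to 2140 normalized counts in Ce and 688 to 899 in St), and Cdh20 and Cdh22 with 0.47 and 0.35.

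The largest difference towards St was that of Cdh9 (chr15:16728550-16857138, plus strand), known from the synapses that dentate gyrus neurons make in the hippocampus. It had 1568, 1361, 1096 and 1493 in StCo and 1318, 1254 and 1615 in StHi, and 11.2, 28.5, 27.3 and 17.8 in CeCo and 26.9, 31.6, 30.6 and 89.8 in CeHi. Thus Cdh9 was 47.7-fold higher in St on the log2(value + 1) scale, a log2 difference of -5.57 ± 0.25 (FDR-adjusted P-value = 2.0e-11). The highest Ce value, 89.8, was in CeHi replicate 3, and without that sample the difference was -5.77. Among the Ce samples the median level of the striatal markers was highest there, whereas their sum was highest in CeHi replicate 1 (11668). Cdh6 had 47.2 to 107 in Ce and 240.5 to 376 in St (log2 difference -2.18 ± 0.15). Cdh11, known from bone and mesenchyme, had 833 to 1048 in Ce and 2616 to 3677 in St (-1.82 ± 0.06).

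Cdh10 differed by -1.53 ± 0.07, with 615 to 907 in Ce and 1804 to 2591 in St, and Cdh24 by -1.28. Cdh8, which had 1740 to 2335 in Ce and 2724 to 3878 in St, differed by -0.78, Cdh12 by -0.60 and Cdh19, a cadherin of glial cells, by -0.39. Cdh5, VE-cadherin of the endothelium, had 374 to 491 in Ce and 298 to 458 in St, with a log2 difference of 0.12 ± 0.09 (FDR-adjusted P-value = 0.24). The sum of the endothelial markers also overlapped between the regions, at 3403 to 4751 over all samples. Of the 5 type II genes that lie in a row on chromosome 15, Cdh6, Cdh9, Cdh10 and Cdh12 were higher in St and Cdh18 was higher in Ce, so that neighbours on the chromosome differed in direction.

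**Figure D2:**
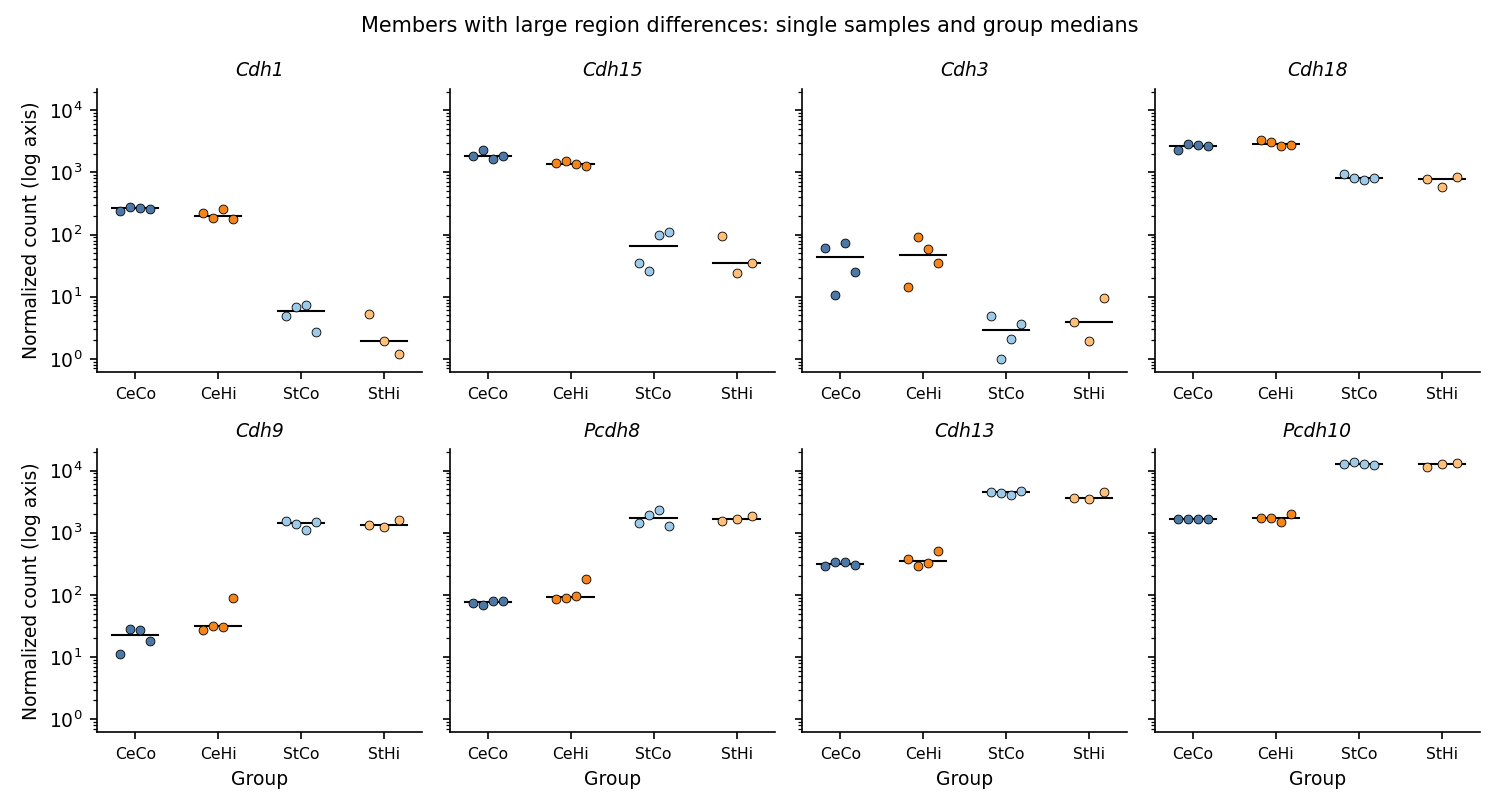
Normalized counts per sample (log axis) of 8 members with large region differences, with 1 point per sample in CeCo, CeHi, StCo and StHi and a line at each group's median. Cdh1, Cdh15, Cdh3 and Cdh18 are above their striatal values in every Ce sample, and Cdh9, Pcdh8, Cdh13 and Pcdh10 are above their cerebellar values in every St sample. The highest cerebellar points of the last 4 are those of CeHi replicate 3.

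Both other cadherins that could be tested were higher in St (39.6% of all genes were). Cdh13, T-cadherin, which is anchored to the membrane by a lipid and has no intracellular part, had 4583, 4359, 4068 and 4628 in StCo and 3605, 3552 and 4550.1 in StHi. In Ce it had 294, 341, 336 and 297 in CeCo and 372, 293, 327 and 505 in CeHi, 12.1-fold lower. The log2 difference was -3.60 ± 0.10 (FDR-adjusted P-value = 4.8e-15), and -3.68 without CeHi replicate 3, which had the highest Ce value. Cdh23 and Pcdh15 form the tip link between the stereocilia of hair cells, and both were higher in St. Cdh23 was low in both regions, at 33.9 to 87.0 in Ce and 68.0 to 105 in St (-0.80 ± 0.19, FDR-adjusted P-value = 0.0010), and the regions overlapped. Pcdh15 had 222 to 284 in Ce and 880 to 1087 in St, without overlap, a log2 difference of -1.99 ± 0.06. The other protocadherin outside the clusters and the delta group, Pcdh20, differed by -0.93, with 525 to 666 in Ce and 869 to 1204 in St.

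Of the 9 delta protocadherins, 8 were higher in St (39.6% of all genes were) and Pcdh9 was not called. All 8 differed by more than 1 on the log2 scale, and in all 8 every St value was above every Ce value (27.7% of all genes did so). The median log2 difference of the 9 was -2.04. Pcdh8, also called arcadlin and induced by neuronal activity, had 1434, 1962, 2282 and 1299 in StCo and 1573, 1651 and 1836 in StHi. In Ce it had 74.6, 67.8, 80.2 and 78.4 in CeCo and 84.9, 87.6, 95.4 and 182 in CeHi. Its log2 difference was -4.23 ± 0.16 (FDR-adjusted P-value = 6.4e-13). CeHi replicate 3 was again the highest Ce sample, and without it the difference was -4.36.

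Pcdh10, or OL-protocadherin, which is needed for the growth of axons through the striatum, had the highest level of the group in St per kb of exon. It had 12695, 13648, 12601 and 12420.5 in StCo and 11555, 12743 and 13340.5 in StHi, against 1664, 1667, 1681 and 1669.8 in CeCo and 1709, 1714, 1507 and 2011 in CeHi. No value of one region came near the other, and the log2 difference between regions was -2.90 ± 0.05 (FDR-adjusted P-value = 5.1e-18). Pcdh19, an X-linked gene known for an epilepsy of girls, had 214 to 302 in Ce and 1378 to 1846 in St (-2.65 ± 0.07). Pcdh11x, also X-linked, had 60.2 to 108 in Ce and 475 to 612 in St (-2.65 ± 0.11).

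Pcdh17, known from the sorting of corticostriatal synapses, had 1271 to 1678 in Ce and 5020 to 6817 in St (-2.04 ± 0.05). Pcdh7, Pcdh1 and Pcdh18 differed by -1.84, -1.45 and -1.39. Pcdh9 was the exception in the group, with 4004 to 5528 in Ce and 3977 to 5589 in St, almost the same range. Its log2 difference of -0.01 ± 0.07 (FDR-adjusted P-value = 0.85) had no settled sign.

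Among the clustered protocadherins on chromosome 18, 46 of 57 were called between the regions (80.7%, near the background of 80.2%), 10 higher in Ce and 36 higher in St, with a median log2 difference of -0.42. Values of the alpha and gamma genes have to be read with care. Between 48.6% and 54.9% of the exonic bases of an alpha gene (36.4% for Pcdha11) and 39.5% to 45.9% of those of a gamma gene lie in exons that other members of the array share. Fragments from the shared exons had to be divided between the isoforms, and 90.7% of the alpha and 87.9% of the gamma values checked were not whole fragments, within 0.05 of a fragment. All of the 330 beta values checked were whole. The alpha and gamma values are therefore estimates that depend on the division, and the beta values are whole fragments. Of the exonic bases of Pcdhb21 and Pcdhb22, 9.67% and 6.89% are shared with another member. Of the transcript windows of 50 bases, 64.2% of those of Pcdhb12, 11.3% of those of Pcdhb21 and less of those of the other beta genes (9.52% for Pcdhb11, the next) also occur in another gene.

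In the alpha array 11 of 14 genes were higher in St (39.6% of all genes were) and 1, Pcdhac2, was higher in Ce (40.6% of all genes were). The largest differences were those of Pcdha6 (-1.64), Pcdha4 (-1.40), Pcdha5 (-1.30), Pcdha1 (-1.06) and Pcdha3 (-1.01), whereas the C-type isoforms were close to 0, with Pcdhac1 at 0.08 ± 0.12 (FDR-adjusted P-value = 0.57) and Pcdhac2 at 0.12 ± 0.04 (0.0099). The sum over the array was 6525 ± 325 (SD, n = 8) in Ce and 8260 ± 823 (n = 7) in St. Pcdhac2, the isoform of serotonergic axons, supplied 50.6% to 59.5% of that sum in the Ce samples and 38.4% to 42.8% in the St samples, which did not overlap. The 12 alpha genes that are not C-type, together with Pcdha4-g, supplied 38.2% in Ce and 54.5% in St. In the beta array 15 of 21 genes were called (71.4%, against 80.2% of all genes). The 11 higher in St were led by Pcdhb3 (-1.07), Pcdhb13 (-0.74) and Pcdhb6 (-0.73), and the 4 higher in Ce by Pcdhb14 (0.46). The sum over the beta array was 5488 ± 331 in Ce and 6209 ± 559 in St.

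**Figure D3:**
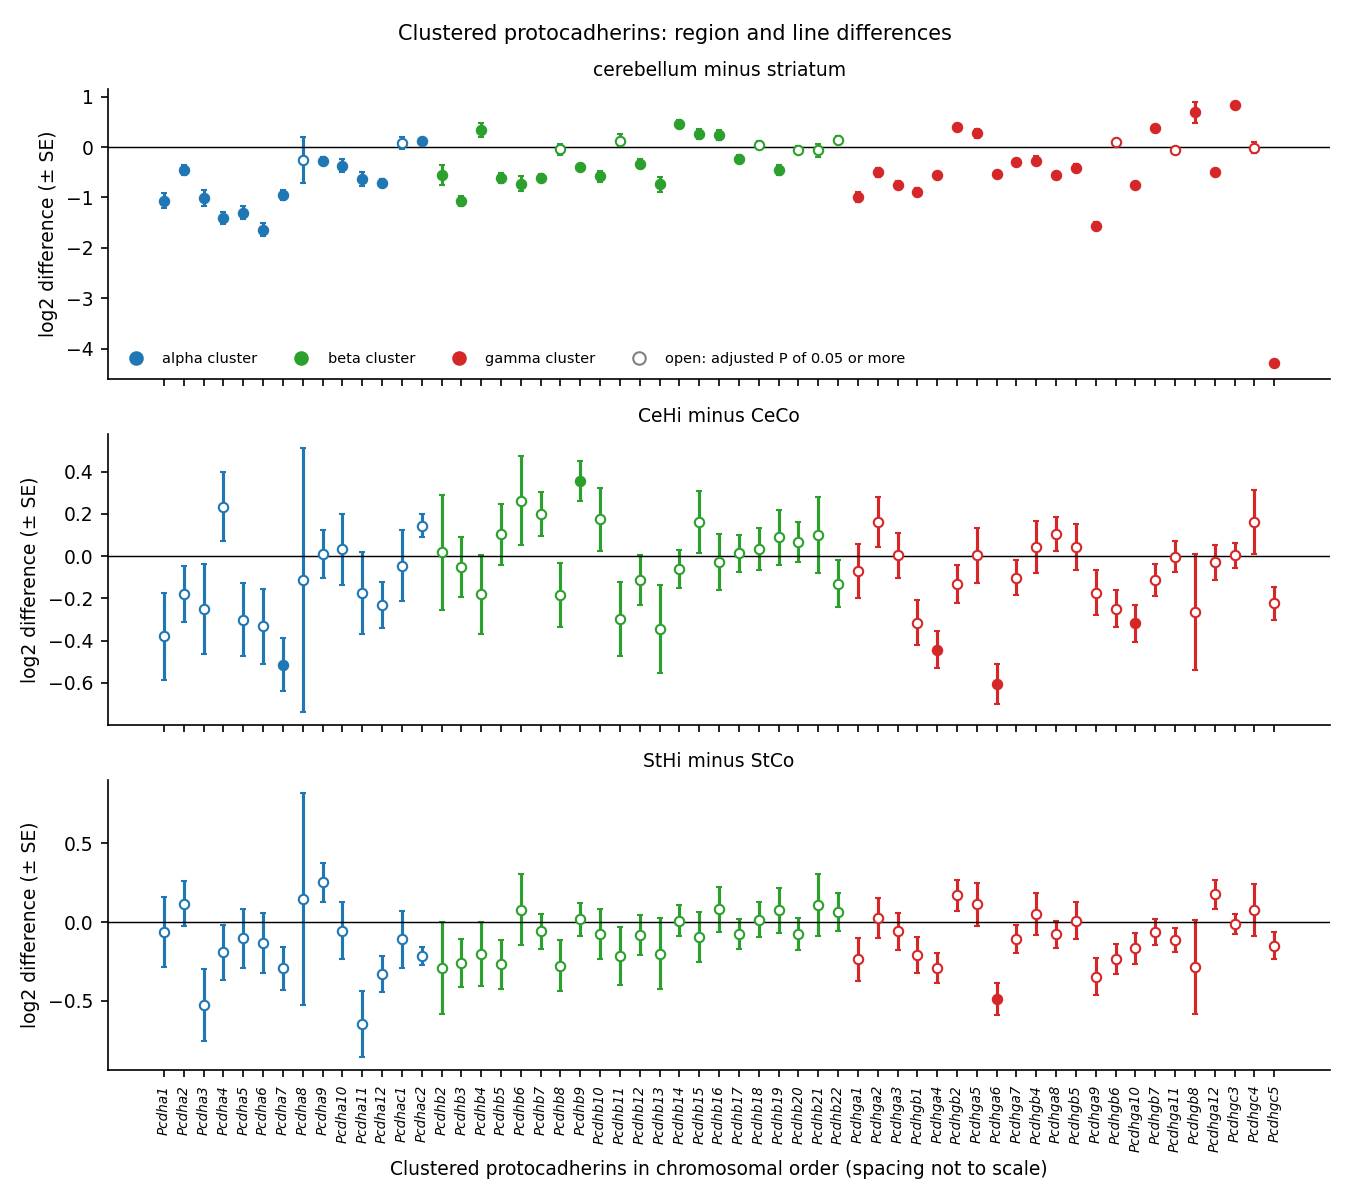
Log2 differences with standard errors (limma) of the 57 tested clustered protocadherins, in their order along the chromosome from the alpha to the gamma array, for cerebellum minus striatum (upper panel), CeHi minus CeCo (middle panel) and StHi minus StCo (lower panel), with filled points for genes called. In the upper panel Pcdhgc5 at -4.29 stands far below all others. In the other panels the called points, 5 and 1, lie apart from each other among genes that were not called.

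In St the 2 largest contributors to the gamma array were C-type isoforms that differed between the regions in opposite directions. Pcdhgc3 (chr18:37806410-37841873, plus strand) had 12638, 13856, 13028 and 13528 normalized counts in CeCo and 13552, 12624, 13485 and 13734 in CeHi, against 7600.1, 7501, 7172 and 7487 in StCo and 7449, 8201 and 6666 in StHi. Pcdhgc5 (chr18:37819546-37841873, plus strand) had 9259.6, 8152, 8146 and 9114 in StCo and 7540.4, 7777 and 8187 in StHi, and only 442, 472, 422 and 485 in CeCo and 365, 346, 404 and 457 in CeHi. The log2 differences were 0.84 ± 0.04 for Pcdhgc3 (FDR-adjusted P-value = 6.2e-12) and -4.29 ± 0.06 for Pcdhgc5 (2.8e-19), a 19.6-fold lower level in Ce.

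As shares of the gamma array, which summed to 26426 ± 1091 in Ce and 31620 ± 1405 in St, Pcdhgc3 made up 47.7% to 53.4% in Ce and 21.7% to 26.3% in St. Pcdhgc5 made up 1.35% to 1.82% in Ce and 24.9% to 28.1% in St. Pcdhgc4, the C-type isoform needed for the survival of interneurons, lies between them and was not called, at -0.01 ± 0.11 (FDR-adjusted P-value = 0.91) and with shares of 4.02% and 3.39%. All the gamma genes that are not C-type together held 44.0% and 46.8%. Among these, Pcdhga9 (-1.57), Pcdhga1 (-0.99) and Pcdhgb1 (-0.89) differed the most towards St.

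**Figure D4:**
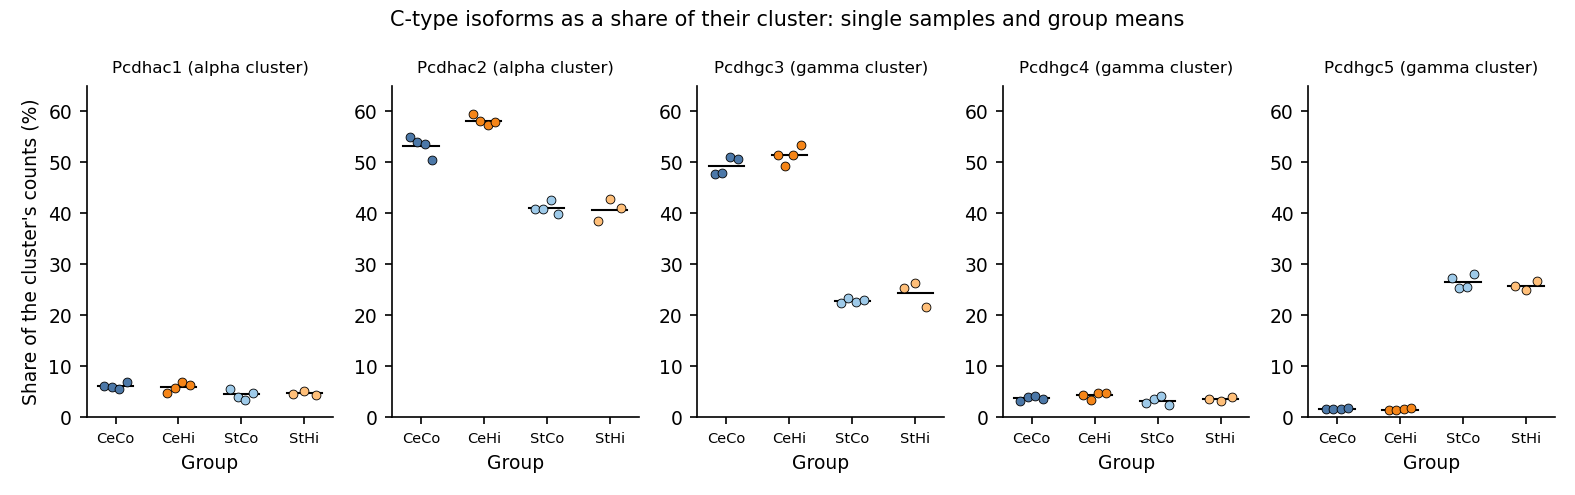
Share of the summed normalized counts of its array (%) held by each C-type isoform, Pcdhac1 and Pcdhac2 of the alpha array and Pcdhgc3, Pcdhgc4 and Pcdhgc5 of the gamma array, with 1 point per sample and a line at the group mean for CeCo, CeHi, StCo and StHi. Pcdhgc3 holds 50.4% on average in cerebellum and 23.6% in striatum, and Pcdhgc5 holds 1.35% to 1.82% in cerebellum and 24.9% to 28.1% in striatum.

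Levels of different genes were compared after dividing the mean normalized count by the exonic length in kilobases, for the members with an annotated length. On this scale the highest members in Ce were Pcdhgc3 (2839 normalized counts per kb), Cdh18 (1014), Cdh2 (881), Pcdh9 (743), Pcdhac2 (618), Cdh22 (568) and Cdh15 (509). In St they were Pcdhgc5 (1753), Pcdhgc3 (1587), Cdh2 (1221), Cdh13 (1108), Pcdh10 (800), Pcdh9 (747), Cdh10 (634) and Cdh11 (586). Cdh2, Pcdh9 and Pcdhgc3 were thus among the highest in both regions, whereas Cdh18 and Cdh15 led only the cerebellar order and Cdh13, Pcdh10 and Pcdhgc5 only the striatal one. The levels of the gamma and alpha genes depend on how the fragments of the shared exons were divided.

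The second comparison asked which members differed between the Hi and Co lines. Within the cerebellum 5 of 88 members were called, 5.68% against 5.94% of all genes tested, so the share was that of the background. The 4 called lower in CeHi (2.99% of all genes were) were Pcdhga6, Pcdhga4, Pcdha7 and Pcdhga10, and the 1 called higher (2.94% of all genes were) was Pcdhb9. All 5 are clustered protocadherins (8.77% of 57, against 5.94% of all genes), and none of the 31 members outside the clusters was called. At an unadjusted P-value under 0.05 there were 15 members (17.0%, against 19.7% of all genes). Within the striatum 1 member was called, again Pcdhga6 (1.14%, against 2.66% of all genes and 1.17% lower in StHi), with 12 at an unadjusted P-value under 0.05 (13.6%, against 14.1% of all genes).

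Pcdhga6 (chr18:37707101-37841870, plus strand) was the only member called in both regions. In CeCo it had 729, 828, 710.4 and 837 normalized counts and in CeHi 451, 519, 621 and 467. In StCo it had 1129.6, 1016, 1051 and 1116 and in StHi 693, 833 and 791. Every Hi sample was below every Co sample of the same region. The log2 difference, Hi minus Co, was -0.61 ± 0.10 in Ce (FDR-adjusted P-value = 0.00066) and -0.49 ± 0.10 in St (0.014), which became -0.41 with an FDR-adjusted P-value of 0.0668 without StHi replicate 0. Of the windows of 50 bases in its annotated transcripts, 44.4% also occur in another gene, and the share was higher for the other alpha and gamma genes called between the lines, at 51.4% for Pcdhgb6, 61.0% for Pcdhgb1, 65.3% for Pcdhga4, 66.1% for Pcdha12, 68.7% for Pcdha7 and 99.0% for Pcdhga10. The values of these genes depend on how shared fragments were divided. Pcdhga10 had almost no window of its own when the annotated transcripts of all genes were counted, whereas 44.8% of its exonic bases are shared with other members.

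Pcdhga4 had 667, 724, 759.8 and 679 in CeCo and 533, 514, 585 and 463 in CeHi, without overlap, a log2 difference of -0.44 ± 0.09 (FDR-adjusted P-value = 0.0052). Its striatal means were 992 ± 124 in StCo and 811 ± 37.1 in StHi. Pcdha7 had 167, 196, 170.3 and 181 in CeCo and 98.4, 157, 120.4 and 131 in CeHi, again without overlap, and differed by -0.51 ± 0.13 (0.021). Pcdhga10 had 695 ± 120 in CeCo and 553 ± 15.6 in CeHi and differed by -0.32 ± 0.09 (0.043), a call lost in 15 of 27 alternatives. Pcdhb9, the beta gene called in the other direction, had 281, 314, 329 and 385 in CeCo and 413, 369, 438 and 455 in CeHi, where 1 CeCo sample was above the lowest CeHi sample, and differed by 0.36 ± 0.10 (0.038). In St its means were 482 ± 19.9 in StCo and 490.4 ± 37.9 in StHi. When 1 sample was left out, the FDR-adjusted P-value (limma) ranged from 0.0131 to 0.144 for Pcdhga10, from 0.0106 to 0.116 for Pcdhb9 and from 0.00480 to 0.0723 for Pcdha7. Pcdhga10 was lost without CeCo replicates 0 or 1, any CeHi sample, StCo replicates 0, 1 or 3, or StHi replicates 1 or 2. Pcdhb9 was lost without CeCo replicates 0, 1 or 2 or CeHi replicates 0, 2 or 3, and Pcdha7 without CeCo replicates 1 or 3 or CeHi replicates 0 or 2.

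Over both regions, the mean of the 2 line differences was called for 7 members, all lower in Hi (7.95% of the members, against 8.48% of all genes in either direction and 4.14% lower in Hi). They were Pcdhga6 (-0.55 ± 0.07, FDR-adjusted P-value = 6.6e-05), Pcdhga4 (-0.37 ± 0.06, 0.0016), Pcdha7 (-0.40 ± 0.09, 0.010), Pcdhga10 (-0.24 ± 0.07, 0.027), Pcdhgb6 (-0.24 ± 0.07, 0.028), Pcdha12 (-0.28 ± 0.08, 0.035) and Pcdhgb1 (-0.26 ± 0.08, 0.047). All 7 belong to the alpha and gamma arrays, and they are 12.3% of the 57 clustered members tested. This test took the Ce and St samples as independent, which samples from the same mouse would not be. Pcdhgb6 had 1358 ± 161 in CeCo and 1147 ± 136 in CeHi, and 1257 ± 66.8 against 1072 ± 70.7 in the striatum, so its Ce samples overlapped. When 1 sample was left out, the largest FDR-adjusted P-value (limma) was 0.0686 for Pcdhga10, 0.0724 for Pcdhgb6, 0.102 for Pcdha12 and 0.113 for Pcdhgb1. Leaving out 1 sample at a time gave between 3 and 7 calls, of which 3 to 6 were among these 7 members. The count was 4 without CeCo replicate 0, CeCo replicate 1, CeHi replicate 0, StCo replicate 1, StHi replicate 0 or StHi replicate 1, and 3 without StCo replicate 0. The Ce count became 3 without CeCo replicate 0 or CeHi replicate 2 and 2 without CeCo replicate 1 or CeHi replicate 0, and the St count became 3 without StCo replicate 2.

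**Figure D5:**
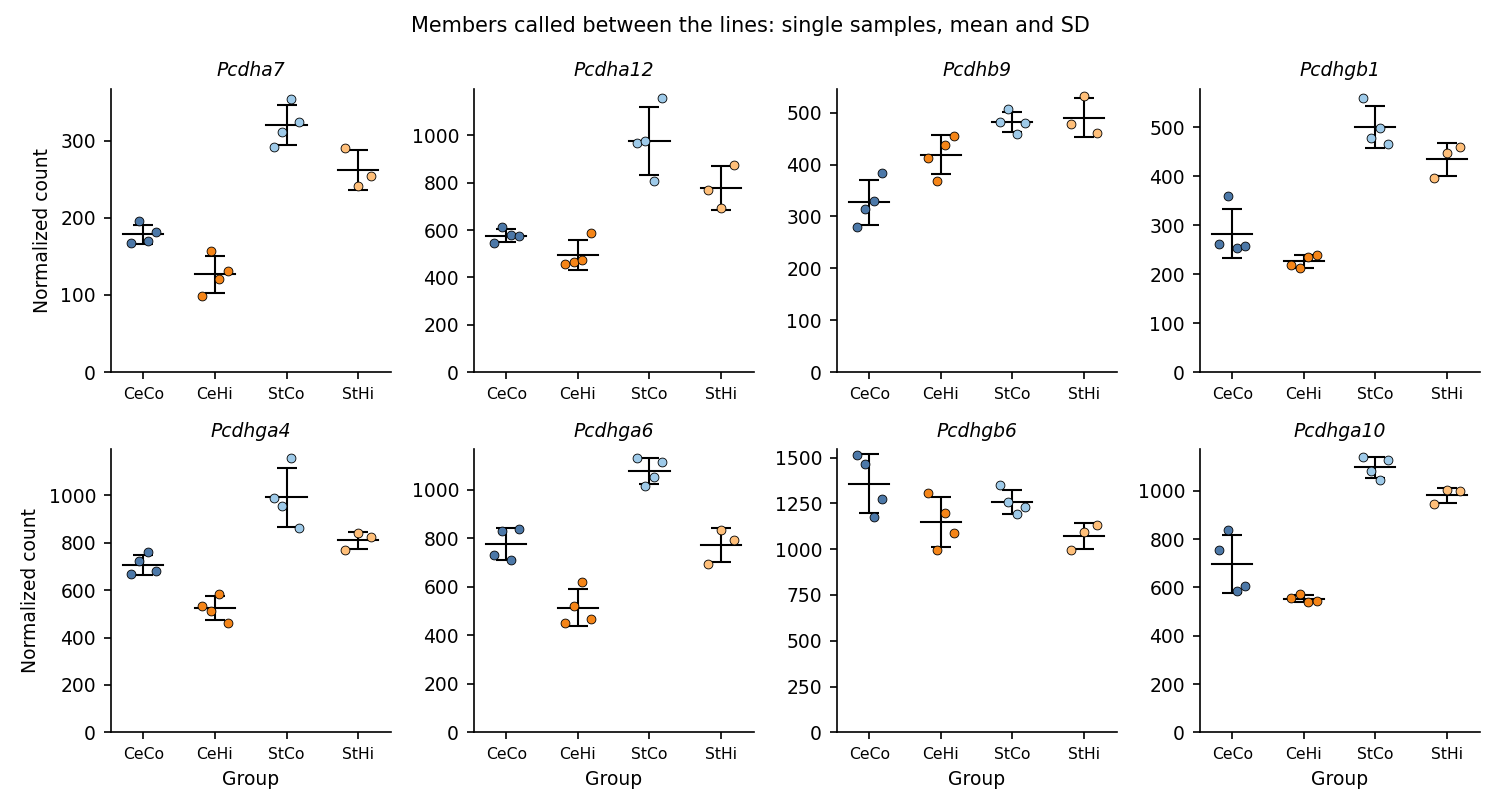
Normalized counts per sample of the 8 members called between the lines in the cerebellum, in the striatum or over both regions, with the mean and SD of CeCo, CeHi, StCo and StHi. Pcdhga6 is lower in every Hi sample than in every Co sample of the same region, and Pcdhb9 is the member with higher values in CeHi than in CeCo (419 against 327 on average).

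Counted by whether the 2 lines overlapped, 6 members (6.82%) had every CeCo value above every CeHi value, against 6.44% of all genes, and 2 (Cdh12 and Pcdh8) had the reverse, against 6.88%. In the striatum 12 members (13.6%) had every StCo value above every StHi value, against 5.87% of all genes. Of the 12, 10 were clustered protocadherins (17.5% of 57), namely Pcdha3, Pcdha7, Pcdhac2, Pcdhb8, Pcdhga4, Pcdhga6, Pcdhga9, Pcdhga10, Pcdhgb1 and Pcdhgb6, and the others were Cdh2 and Cdh10. The alpha and gamma genes among them share exons within their array, so they do not count as separate genes. The sum over the gamma array did not overlap either, at 31799 to 33818 in StCo and 29363 to 31208 in StHi. The alpha sum overlapped, at 7856 to 9339 in StCo and 6959 to 8182 in StHi. In 3 members, Cdh7, Cdh19 and Pcdhga12, every StHi value was above every StCo value, against 7.2% of all genes. The cortical marker sum also differed between these groups, at 32773 to 48772 in StCo and 17219 to 37114 in StHi, and its part in the striatal values was not tested.

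Outside the clusters, Cdh15 and Cdh12 separated the lines in Ce without being called. Cdh15 had a mean of 1911 ± 275 in CeCo and 1395 ± 110 in CeHi, a log2 difference of -0.45 ± 0.47 with an FDR-adjusted P-value of 0.66. Its striatal samples, which enter the same estimate of the spread, ranged from 24.3 to 111, and when the cerebellar samples were fitted alone the FDR-adjusted P-value was 0.0133. Cdh12 had 338, 332, 267 and 251 in CeCo and 423, 496, 395 and 357 in CeHi, a difference of 0.49 ± 0.15 (0.065). Cdh19 had 452 ± 31.9 in StCo and 648 ± 61.1 in StHi, a difference of 0.51 (FDR-adjusted P-value = 0.17, and 0.0242 when the striatum was fitted alone). The oligodendrocyte markers moved with Cdh19, from 175136 to 256819 in StCo to between 267664 and 307421 in StHi, and their part was not tested.

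Whether the line difference itself differed between the regions was tested as an interaction. By limma 0 of 88 members were called (0.532% of all genes were), with 7 at an unadjusted P-value under 0.05 (7.95%, against 9.56% of all genes), and other tools called 1 (edgeR) and 2 (DESeq2). The smallest FDR-adjusted P-value, 0.055, was that of Pcdhac2, with an interaction of 0.36 ± 0.08 on the log2 scale. It had 3538, 3752, 3157 and 3367 in CeCo and 3795, 3981, 3741 and 3787 in CeHi, and 3808, 3610.5, 3348 and 3554 in StCo and 3144, 2977 and 3172 in StHi. The line difference was 0.14 in Ce and -0.21 in St. As a share of the alpha array, Pcdhac2 held 53.3% ± 1.92 in CeCo and 58.2% ± 0.91 in CeHi, and 41.0% ± 1.17 against 40.7% ± 2.19 in the striatum. None of the members called between the lines in Ce or St was called for the interaction, which does not show that their differences were equal.

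Proteins that act with the members were counted by lists. Of 9 catenins and related proteins, which join cadherins to the cytoskeleton, 7 differed between the regions (80.2% of all genes did), 4 higher in Ce and 3 higher in St. Ctnna3 (1.91) and Jup (1.57) were the largest towards Ce and Ctnna2 (-1.48), the alpha-catenin of neurons, towards St, while Ctnnb1 (-0.01) and Ctnnd1 (0.06) were not called. All 11 large cadherins and calsyntenins found in the table differed, 4 higher in Ce and 7 higher in St, with Fat2, which also served as a cerebellar marker, at 11.16, Fat1 at 1.88, Celsr1 at -2.22, Fat3 at -2.15 and Fat4 at -1.10. All 7 regulators of the protocadherin clusters were higher in Ce (40.6% of all genes were), by between 0.23 (Setdb1) and 1.76 (Dnmt3b, a DNA methyltransferase), with Ctcf, the insulator protein, at 0.56 and the cohesin subunit Rad21 at 0.52.

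Between the lines, 2 of the 9 catenins were called in Ce (5.94% of all genes were) and 1 of them over both regions (8.48% of all genes were), and none of the large cadherins, calsyntenins or cluster regulators. Ctnna3 was higher in CeHi (388 ± 46.6) than in CeCo (238 ± 25.7), by 0.70 (FDR-adjusted P-value = 0.0045), and over both regions by 0.44 (0.010), with 74.9 ± 12.5 in StCo and 85.5 ± 12.8 in StHi. The oligodendrocyte marker sum was 160529 to 194603 in CeCo and 185140 to 239610 in CeHi, and its part was not tested. Jup, or plakoglobin, was lower in CeHi (6370 ± 369) than in CeCo (7917 ± 669), a log2 difference of -0.32 (0.0079), and had 2304 ± 155 in StCo and 2452 ± 163 in StHi, with an interaction of -0.40 (0.088). Of 25 tested genes within 500 kb of the members called between the lines, other than members, 1 was called in Ce and over both regions, where 5.94% and 8.48% of all genes were. It was Hdac3, a histone deacetylase, which was lower in Hi, with a log2 difference of -0.23 in Ce (0.044) and -0.16 over both regions (0.041).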

How the data were processed

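RNA-seq values of 15 samples were analysed. The authors aligned reads to GRCm38 (mm10) with TopHat2, and the submitters' processing notes name Cuffnorm 2.2.1 and Cuffdiff. The deposited values are a signal per gene, fragment counts that the authors scaled for library size and left undivided by transcript length, whatever the FPKM in the table's name says. Between 99.5% and 99.7% of low values were whole fragments, within 0.05 of a fragment. One fragment equalled 0.841 to 1.30 normalized counts. Groups were taken from the labels.

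Genes with a CPM of at least 1 in 3 samples were tested. Values were scaled by trimmed mean of M-values (edgeR 4.0.16, factors 0.993 to 1.01) and taken as log2 of the value plus 1. Group means were fitted with limma 3.58.1 (R 4.3.3, trended and robust), with Benjamini-Hochberg adjustment over 15213 genes at 0.05. Since the values are scaled, edgeR's quasi-likelihood test, which the study used, and DESeq2 1.42.0 were run as alternatives on the recovered fragments. On simulated data with 200 of 15213 genes changed by a log2 of 1 between CeCo and CeHi, 99.0% were recovered and 4.81% of calls were false. The simulation gave every gene the same dispersion and no region difference. It therefore gives no recovery rate for the smaller line differences of the members. P-values set a difference between groups against the spread between samples within groups. Each line was 1 breeding line, so this spread holds no variation between breeding lines. The main fit took the samples as independent. Samples of Ce and St that came from the same mouse would not be.

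The members and lists were chosen with earlier results of these data known. The naming rule took members called between the lines, C-type isoforms, and per subfamily the 3 largest region differences and the 2 highest levels. It gave 41 members against a limit of 30. The 11 past that limit, and other members named, were named after their values were seen. Gene positions came from a GRCm38 annotation (24575 genes placed). The sample the authors removed was not analysed here.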

Additional observations from a re-analysis of the deposited data

Results flagged for a closer look

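In groups of 4 samples, 41 members were checked in 3 groups each, and in 8 of the 123 checks the highest or lowest sample lay farther from the others than Dixon's 95% limit allows. Chance gives about 1 in 20. In CeHi, replicate 3 stood above the others for Cdh9 (89.8, others 26.9 to 31.6), Pcdh8 (182, others 84.9 to 95.4) and Pcdha12 (589, others 455 to 474), and replicate 0 for Pcdhb6 (81.6, others 47.5 to 49.7). In CeCo, replicate 2 stood above the others for Cdh23 (87.0, others 33.9 to 40.1), replicate 3 for Pcdhb20 (558, others 487 to 499) and replicate 1 for Pcdhgb1 (359, others 253 to 261). In StCo, replicate 3 stood below the others for Pcdhga9 (1522, others 1686 to 1699). Among the Ce samples the median level of the striatal markers was also highest in CeHi replicate 3, whereas their sum was highest in CeHi replicate 1. The part of striatal tissue in the 3 values of CeHi replicate 3 was not tested.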

How the results depend on the processing

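The count of members called between the regions was 72 to 75 when 1 sample was left out and stayed within 1.5 times under every alternative run. The St count of 1 became 4 with sample quality weights, 3 with each region fitted alone, 2 with the replicate block and 3 with DESeq2. The interaction count of 0 became 1 with a pseudocount of 5, with quality weights and with edgeR, and 2 with DESeq2. Leaving out 1 sample gave 2 to 6 for Ce, 1 to 3 for St, 0 to 1 for the interaction (1 without CeCo replicate 1 or StCo replicate 2) and 3 to 7 over both regions. The replicate numbers were not taken as pairing, since only the Co numbers passed the check. Same-numbered Ce and St samples correlated at 0.171 to 0.278 in Co, 4 of 4 best with their own number, a hint that these numbers tie samples together, and at -0.0751 to 0.0513 in Hi, 1 of 3 best with its own. With the replicate block the counts were 74 for region, 6 for Ce, 2 for St, 0 for the interaction and 7 over both regions. With the block within line they were 76 and 0 for region and interaction. The cause of these changes was not tested.

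Of the line calls, those of Pcdhga6 and Pcdhga4 in Ce and over both regions, and of Pcdha7 over both regions, were kept under all alternatives run. Pcdha7 in Ce was lost in 5 of 27, Pcdhb9 in 7, Pcdhga10 in 15 and Pcdhga6 in St in 1. Over both regions Pcdhgb1 was lost in 19 of 26, Pcdha12 in 13, Pcdhgb6 in 8 and Pcdhga10 in 6. Cdh12 in Ce was called in 5 of 27, with FDR-adjusted P-values of 0.0225 with DESeq2 and 0.0448 with Ce alone, and Pcdhac2 was called for the interaction in 6. The region difference changed sign for Pcdh9 with no filter (0.00797) and when samples were left out (-0.0595 to 0.0228), for Pcdhac1 when samples were left out (-0.00711 to 0.152), and for Pcdhgc4 with no filter (0.00753), with the block (0.00502) and when samples were left out (-0.0836 to 0.0506). None of these 3 was called. Depth limits Cdh1 and Cdh3 in St, where some samples held 3 fragments or fewer.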
